A study of Mus musculus with 6 samples.

Results

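The cytosolic ribosomal proteins form, with ribosomal RNA, the ribosomes that translate nuclear mRNAs. Their genes were taken from the deposited expression table by symbol: Rpl or Rps followed by a number with at most a short letter suffix, plus Rplp0, Rplp1, Rplp2 and Rpsa. Pseudogene names ending in -ps and the kinases named Rps6k were left out. The rule found 85 of the 34745 genes listed, 52 of the large subunit and 33 of the small subunit. RNA-seq was done at embryonic day 12.5 on the MGE (medial ganglionic eminence), a proliferative zone of the ventral telencephalon that gives rise to cortical interneurons. One group was Sp9-/-, here Sp9 null, which lacks the zinc finger transcription factor Sp9. The other group was wild type littermates, and 3 libraries were sequenced from each. The strain background of both groups was a mix, made up of 129S6, CD1 and C57BL/6J. The labels give neither the design of the null allele nor its driver, and do not say whether a library came from 1 embryo or from pooled embryos. The p-values below therefore measure only the spread between these libraries, which may be technical.

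In the ribosome the small subunit binds mRNA and decodes it, while the large subunit forms the peptide bond and holds the exit tunnel. Most ribosomal proteins are present once per ribosome, and their mRNAs are among the most abundant in dividing cells. These mRNAs begin with a run of pyrimidines at the cap, the terminal oligopyrimidine or TOP motif, through which mTOR and the RNA-binding protein Larp1 control their translation. Neural progenitors of the embryonic forebrain make ribosomes at a high rate and lower that rate as they differentiate.

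Library totals ran from 6826447 to 10979280 counts in Sp9 null MGE and from 9536050 to 10914147 in wild type MGE. Sp9 had 13.04, 10.6 and 12.5 CPM (counts per 1000000 library counts) in Sp9 null replicates 1, 2 and 3, against 203, 247 and 189 CPM in wild type replicates 1, 2 and 3, which fits the labels. Summed, 9 MGE markers held 4153 to 4308 CPM in Sp9 null and 3590 to 3741 CPM in wild type libraries. They included Nkx2-1 and Lhx6, and each was counted in both groups. The sum covers genes that went both ways, with log2 fold changes of Sp9 null over wild type from -0.79 to 0.69 (6 above 0, 3 below). Whether these markers set the MGE apart from neighbouring tissue was not tested. Replicate 2 stood apart in both genotypes: 6 pallial neuron markers summed to 1.28 CPM in Sp9 null and 1.37 CPM in wild type replicate 2, against 26.1 and 46.1 CPM in the other Sp9 null and 16.7 and 22.9 CPM in the other wild type libraries. Deviations from the genotype mean correlated positively between libraries with the same replicate number in all 3 pairs. They also did so between the unlike numbers 1 and 3 (0.354 and 0.230). Deviations of 3 libraries sum to 0, so an outlying replicate 2 in both genotypes tends by itself to make the others correlate. The pairing of numbers 1 and 3 is therefore uncertain. Results of a model blocked on the replicate number are given beside those of the model with genotype alone. All 11 markers of stomach and exocrine pancreas were at 0 in the 3 Sp9 null libraries and summed to 101 to 131 CPM in the wild type libraries. The 6 microglial markers summed to 7.32 to 11.9 CPM in Sp9 null and 27.5 to 31.2 CPM in wild type libraries. The part of either tissue's RNA in the ribosomal protein values was not tested.

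Ribosomal protein genes together took a smaller share of the counts in Sp9 null MGE. The 85 genes held 1.998%, 2.02% and 1.80% of the counts in Sp9 null replicates 1, 2 and 3, against 2.08%, 2.38% and 2.04% in wild type replicates 1, 2 and 3. All Sp9 null libraries lay below all wild type libraries, with the narrowest gap between Sp9 null replicate 2 and wild type replicate 3. The mean share was 1.94% ± 0.120 in Sp9 null and 2.17% ± 0.185 in wild type MGE (SD, n = 3 each), a difference of -0.228 percentage points. Wild type replicate 2 carried much of this difference, which was -0.122 points without it. Mitochondrial transcripts took 2.32%, 3.43% and 3.41% of counts in Sp9 null replicates 1, 2 and 3, against 2.20% to 2.28% in wild type libraries. Over counts outside mitochondrial genes the ribosomal protein difference was -0.217 points, and the groups then overlapped, with 2.092% in Sp9 null replicate 2 just above 2.089% in wild type replicate 3.

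Both subunits were lower by similar proportions, at 0.898 of the wild type share for the large and 0.889 for the small subunit. Large-subunit genes held 1.21%, 1.22% and 1.09% of counts in Sp9 null replicates 1, 2 and 3, against 1.252%, 1.43% and 1.23% in wild type replicates 1, 2 and 3. Small-subunit genes held 0.789%, 0.801% and 0.714% in Sp9 null replicates 1, 2 and 3, against 0.831%, 0.952% and 0.809% in wild type replicates 1, 2 and 3. As shares of all counts, the groups did not overlap in either subunit. Over counts outside mitochondrial genes, the groups overlapped for the 2 subunits summed, as given above. The large-to-small ratio was 1.53 ± 0.0065 in Sp9 null and 1.51 ± 0.0114 in wild type MGE (SD, n = 3 each), so the 2 subunits kept nearly the same proportion in every library. In whole tissue, fewer ribosome-rich cells and less ribosomal protein mRNA per cell cannot be told apart. Wild type replicate 2, with the highest share, also had the highest summed level of 8 radial glia markers, and Sp9 null replicate 3, with the lowest share, had the lowest. Those sums were 2391, 2730 and 2029 CPM in Sp9 null replicates 1, 2 and 3, against 2239, 2891 and 2366 CPM in wild type replicates 1, 2 and 3. Their part in the difference was not tested.

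**Figure D1:**
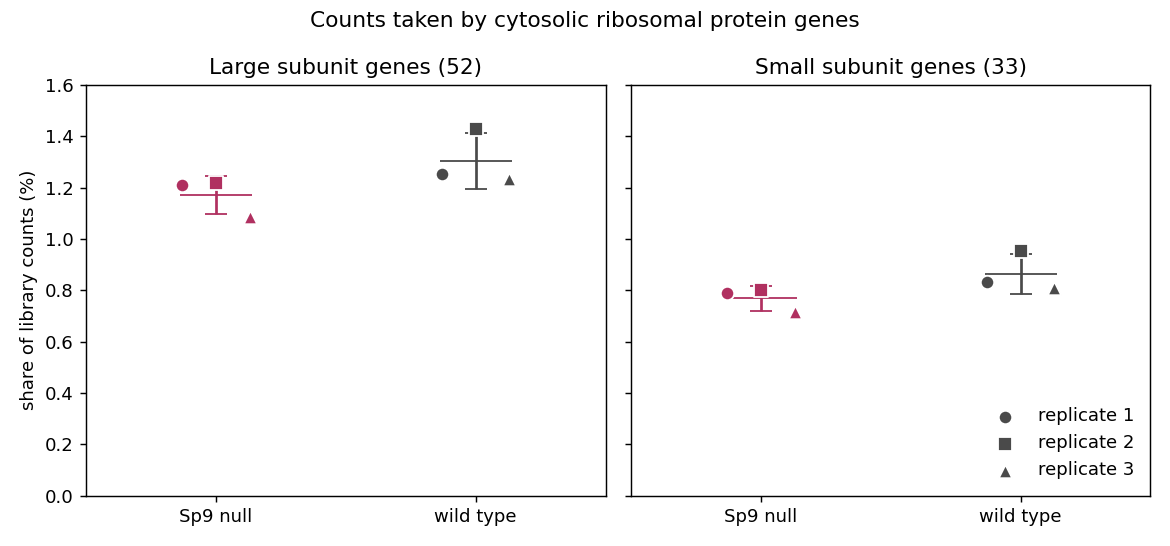
Share of each library's counts taken by the 52 large-subunit genes (left) and the 33 small-subunit genes (right), in percent; points are libraries, with the shape giving the replicate number, and lines are means with SD (n = 3 each). In both panels the 3 Sp9 null libraries lie below the 3 wild type libraries, and wild type replicate 2 is the highest point.

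Gene by gene, the family was lower in Sp9 null MGE in nearly every member, but the differences were small and none passed the test with genotype alone. Of the 85 genes, 81 passed the filter on low counts, 48 large-subunit and 33 small-subunit. By edgeR's quasi-likelihood test with genotype alone, 0 of the 81 were called lower at a Benjamini-Hochberg adjusted p under 0.05 and 0 higher, where 0.1% and 0.0469% of all 14929 tested genes were called lower and higher. At an unadjusted p under 0.05, 17 of the 81 differed, against 5.91% of all tested genes, and all 17 were lower, against 2.96%. DESeq2 with genotype alone called 1 member lower, Rps29, against 0.295% of all tested genes, and 0 higher, against 0.268%. The log2 fold change of Sp9 null over wild type was below 0 in 77 of 81 members, against 51.1% of all tested genes. Its median was -0.18 over the members, a level 11.7% lower, against -0.0046 over all tested genes.

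Blocked on the replicate number, edgeR called 19 of the 81 members lower, against 1.78% of all tested genes. It called 0 higher, against 2.22% of all tested genes, and 59 members were lower at an unadjusted p under 0.05, against 8.41%. The 19 comprised 8 large-subunit genes (Rpl9, Rpl10, Rpl13, Rpl27a, Rpl32, Rpl35a, Rpl37a and Rplp1) and 11 small-subunit genes (among them Rps13, Rps15, Rps16, Rps18, Rps21, Rps23, Rps27, Rps27a, Rps28 and Rps29). Over the 21 alternatives, the lowest adjusted p of these 19 genes lay between 3.38e-11 and 0.0298, and the highest between 0.932 and 1. The count of 19 rested on which pairs of libraries entered. Without replicate 1 in both genotypes, the fit called 50 members lower, against 3.48% of all tested genes, and 1 higher, against 4.41%. Leaving out replicate 2 gave 0 members, against 0.392%, and leaving out replicate 3 gave 5, against 0.764%. Each of these fits held only 2 pairs, so its p-values rested largely on the spread shared across genes. DESeq2 with the block called 3 members lower, Rps27, Rps28 and Rps29, against 0.449% of all tested genes, and 0 higher, against 0.643%.

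Differences within same-numbered libraries had the same direction in every pair but different sizes. The median log2 difference over the 81 members was -0.08, -0.26 and -0.20 in pairs 1, 2 and 3. Sp9 null was the lower library for 66, 74 and 74 of the 81 members, against 52.1%, 50.2% and 50.8% of all tested genes in pairs 1, 2 and 3. In 57 of the 81 members Sp9 null was lower in all 3 pairs, against 19.5% of all tested genes. On TMM-scaled log2 CPM, all 3 Sp9 null libraries lay below all 3 wild type libraries for 25 of the 81 members, 11 large-subunit and 14 small-subunit, against 6.73% of all tested genes. None lay wholly above, against 5.87%.

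**Figure D2:**
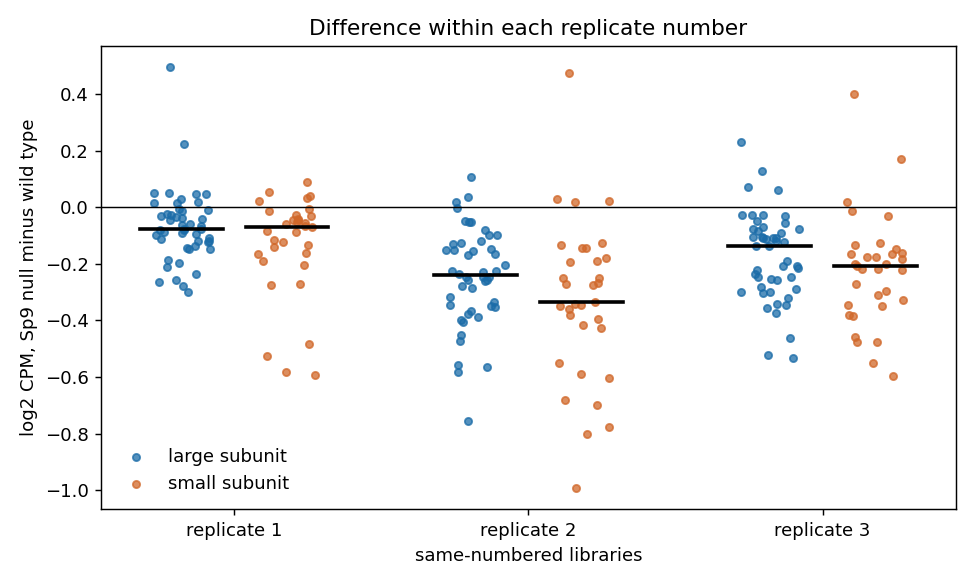
Log2 CPM of Sp9 null minus wild type within each replicate number; each point is 1 of the 81 tested genes, blue for the large and orange for the small subunit, and black bars are medians. Most points lie below 0 in all 3 pairs, and the median over all members is nearest to 0 in pair 1 (-0.08).

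Large-subunit genes had a median log2 fold change of -0.17 (46 of 48 below 0) and small-subunit genes one of -0.21 (31 of 33 below 0). The small subunit held most of the larger differences. Its values ran from -0.71 for Rps29 to 0.29 for Rps26, and those of the large subunit from -0.43 for Rpl39 to 0.09 for Rpl22l1. The 4 members above 0 were Rps26, Rpl22l1, Rpl4 and Rps6, none of them called. Wild type replicate 2 again weighed on these medians: without it they were -0.08 for the large and -0.11 for the small subunit. The difference between subunits was not tested, because the members were chosen with earlier results known.

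**Figure D3:**
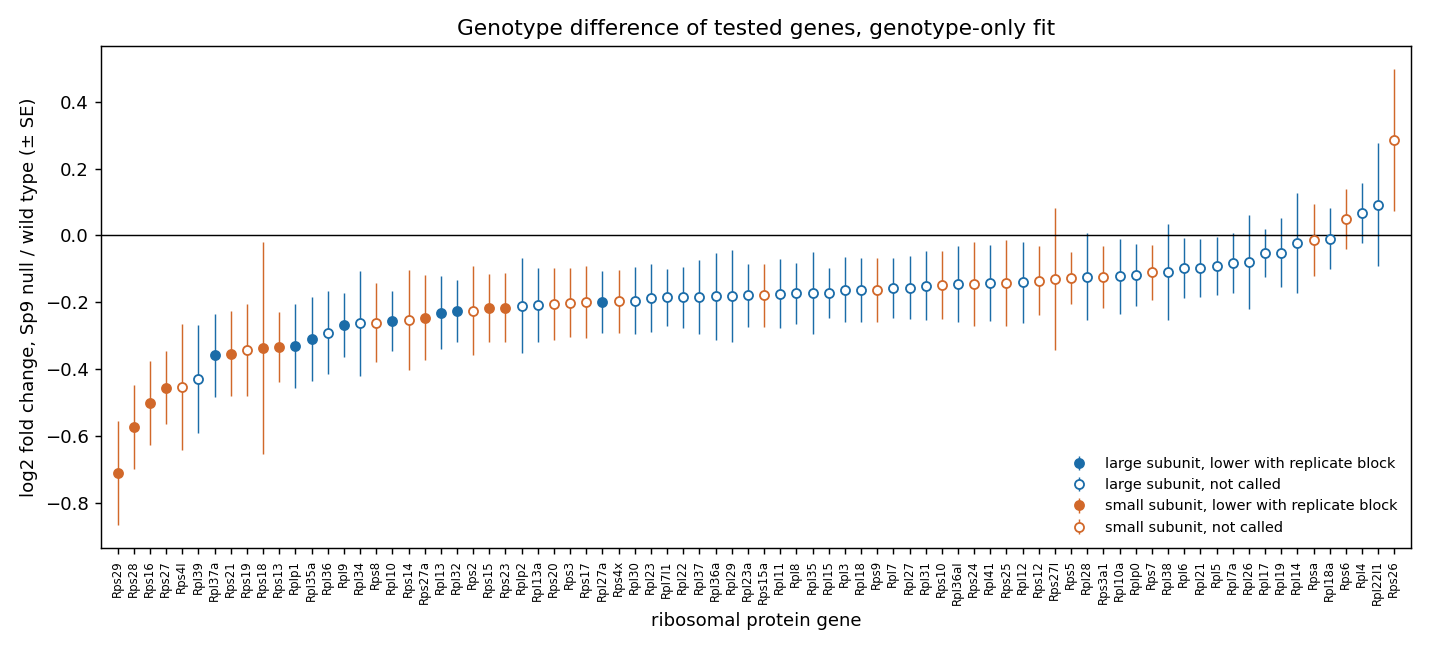
Log2 fold change of Sp9 null over wild type with its SE for 80 of the 81 tested genes (n = 3 libraries each), in order; filled points are genes called lower by edgeR with the replicate block. All but 4 genes lie below 0, and small-subunit genes hold the lowest positions, from Rps29 at -0.71.

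Rps29 showed the lowest fold change. It encodes a zinc-binding protein of the small-subunit head (ENSMUSG00000034892, chr12:69157722-69159186 on GRCm38, as are all coordinates here). It had 31.2, 27.0 and 25.1 CPM in Sp9 null replicates 1, 2 and 3, against 44.8, 55.4 and 37.6 CPM in wild type replicates 1, 2 and 3. The groups did not overlap, and wild type replicate 3 was the closest to the Sp9 null libraries. The log2 fold change was -0.71 ± 0.16 (SE), a level 38.9% lower, with an adjusted p of 0.327 by edgeR with genotype alone and 1.08e-05 with the block. Over the 21 alternatives tried, the adjusted p ran from 1.67e-07 to 0.96.

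Rps28, a small protein of the small-subunit head near the mRNA exit (ENSMUSG00000067288, chr17:33819027-33824562), was the second lowest. Its levels were 34.3, 34.6 and 35.3 CPM in Sp9 null replicates 1, 2 and 3, against 51.5, 61.2 and 44.8 CPM in wild type replicates 1, 2 and 3. The Sp9 null libraries were nearly equal, while the wild type libraries spread over a wider range above them. The log2 fold change was -0.57 ± 0.13 (SE), with an adjusted p of 0.327 by edgeR with genotype alone, 9.94e-05 with the block, and up to 0.978 over the alternatives. Rps28 overlaps Kank3, and the strand of the counting is not stated.

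Rps27, a zinc-finger protein of the small subunit (ENSMUSG00000090733, chr3:90212522-90213651), had 83.8, 67.9 and 69.6 CPM in Sp9 null replicates 1, 2 and 3, against 101, 113.5 and 92.5 CPM in wild type replicates 1, 2 and 3. Its log2 fold change was -0.46 ± 0.11 (SE), with an adjusted p of 0.399 by edgeR with genotype alone and 0.000156 with the block. Rps16, whose tail reaches the tRNA site in the head (ENSMUSG00000037563, chr7:28350652-28352696), had 134, 117 and 116.6 CPM in Sp9 null replicates 1, 2 and 3, against 152, 209.8 and 165.6 CPM in wild type replicates 1, 2 and 3. For both genes the lowest wild type library was above the highest Sp9 null library. The log2 fold change of Rps16 was -0.50 ± 0.13 (SE), with an adjusted p of 0.459 by edgeR with genotype alone and 0.0294 with the block.

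Among the other small-subunit genes called with the block, Rps13 averaged 95.8 ± 6.496 CPM in Sp9 null and 122 ± 15.6 CPM in wild type MGE (SD, n = 3 each, as below), a log2 fold change of -0.33 with an adjusted p of 0.0111 by edgeR with the block. Rps21 averaged 35.3 ± 2.77 CPM in Sp9 null and 45.7 ± 6.99 CPM in wild type MGE, a log2 fold change of -0.35 with an adjusted p of 0.0375. Both genes were lower in every Sp9 null library than in any wild type library. Rps23, which lies at the decoding centre, averaged 168 ± 12.3 CPM in Sp9 null and 198 ± 23.6 CPM in wild type MGE, with an adjusted p of 0.0397. Rps15 averaged 230.0 ± 25.9 CPM in Sp9 null and 271 ± 20.02 CPM in wild type MGE, with an adjusted p of 0.0267. Rps27a, translated as a fusion with ubiquitin, averaged 153 ± 14.7 CPM in Sp9 null and 184 ± 29.8 CPM in wild type MGE, with an adjusted p of 0.0298. These 3 had log2 fold changes of -0.22, -0.22 and -0.25, in that order, and also did not overlap between genotypes.

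Rps18, a protein of the small-subunit head (ENSMUSG00000008668, chr17:33951999-33956001), varied most between libraries of 1 genotype. It had 84.8, 55.01 and 51.7 CPM in Sp9 null replicates 1, 2 and 3, against 118, 68.5 and 57.7 CPM in wild type replicates 1, 2 and 3. Replicate 1 was high in both genotypes, and the genotypes overlapped. Within each pair Sp9 null was lower, and the log2 fold change with the block was -0.30 (adjusted p = 0.0172 by edgeR), against an adjusted p of 0.933 with genotype alone. Its SD within genotypes was 0.459 on the log2 scale, where the median was 0.142 over the 81 members and 0.184 over all tested genes. Rps18 overlaps Vps52, which held 3463 counts over the 6 libraries beside 4116 for Rps18, so part of its counts may belong to that neighbour.

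Of the large-subunit genes called with the block, Rpl37a, a zinc-binding protein (ENSMUSG00000046330, chr1:72711260-72713809), had the lowest fold change. Its levels were 72.1, 67.7 and 61.4 CPM in Sp9 null replicates 1, 2 and 3, against 77.9, 103 and 80.3 CPM in wild type replicates 1, 2 and 3. Its log2 fold change was -0.36 ± 0.12 (SE), with an adjusted p of 0.765 by edgeR with genotype alone and 0.00462 with the block. The groups were separate but close, with Sp9 null replicate 1 just under wild type replicate 1. Rpl9 (ENSMUSG00000047215, chr5:65388364-65391444) had 246, 209.6 and 193.5 CPM in Sp9 null replicates 1, 2 and 3, against 256, 280.3 and 256 CPM in wild type replicates 1, 2 and 3. Its log2 fold change was -0.27 ± 0.10 (SE), with an adjusted p of 0.777 by edgeR with genotype alone and 0.00685 with the block. Sp9 null replicate 1 lay close to wild type, and the other Sp9 null libraries lay further below.

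Rpl10, which joins the large subunit late, in the cytoplasm, near the tRNA sites (ENSMUSG00000008682, chrX:74270812-74273135), averaged 339 ± 36.2 CPM in Sp9 null and 411 ± 25.2 CPM in wild type MGE. Its log2 fold change was -0.26, with an adjusted p of 0.0161 by edgeR with the block. Rpl35a averaged 63.5 ± 6.95 CPM in Sp9 null and 79.6 ± 11.2 CPM in wild type MGE, a log2 fold change of -0.31 with an adjusted p of 0.0142, and overlaps Gm17106. Rpl13 averaged 377 ± 41.9 CPM in Sp9 null and 448 ± 46.8 CPM in wild type MGE, with an adjusted p of 0.0239. These 3 genes had no overlap in CPM between genotypes. Rpl32 averaged 181 ± 5.27 CPM in Sp9 null and 215 ± 23.7 CPM in wild type MGE, with an adjusted p of 0.0307, and overlaps Cand2. Rpl27a averaged 227.5 ± 9.42 CPM in Sp9 null and 265 ± 26.1 CPM in wild type MGE, with an adjusted p of 0.0463, the highest of the 19. Its lowest wild type library, replicate 3 at 242 CPM, was just above its highest Sp9 null library, replicate 2 at 238 CPM, and the order of these 2 turned round after TMM scaling.

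The stalk proteins, which recruit translation factors to the large subunit, had differences of unequal size. Rplp1, an acidic stalk protein (ENSMUSG00000007892, chr9:61913284-61914538), had 106.8, 93.5 and 87.0 CPM in Sp9 null replicates 1, 2 and 3, against 109, 144 and 112.7 CPM in wild type replicates 1, 2 and 3. It was called with the block (log2 fold change -0.33, adjusted p = 0.0273 by edgeR). Rplp2, its partner, averaged 104 ± 11.2 CPM in Sp9 null and 122 ± 22.4 CPM in wild type MGE, with an adjusted p of 0.115 with the block. Rplp0, the stalk base, averaged 685 ± 63.8 CPM in Sp9 null and 754 ± 41.3 CPM in wild type MGE, with an adjusted p of 0.306. Only Rplp1 of the 3 had separate groups, and whether it differed more than its partners was not tested.

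**Figure D4:**
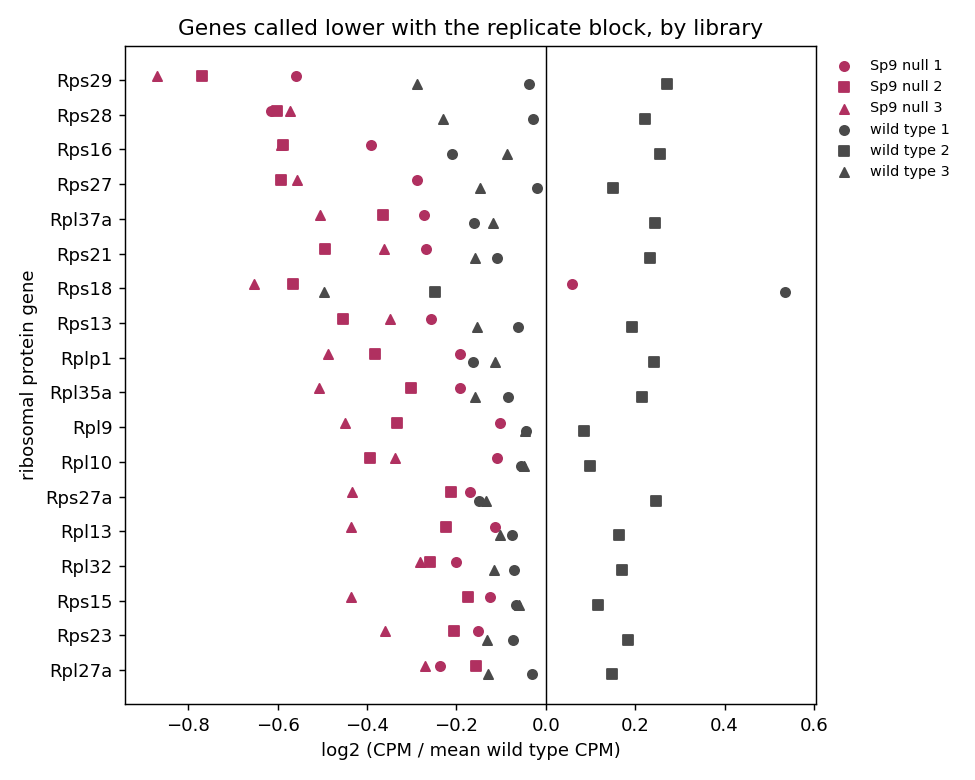
Log2 of each library's CPM over the mean wild type CPM for 18 of the 19 genes called lower with the replicate block; red marks are Sp9 null and grey marks wild type libraries, with the shape giving the replicate number. Sp9 null marks lie to the left of wild type marks in most rows, and in Rps18 replicate 1 is far to the right in both genotypes (84.8 CPM in Sp9 null and 118 CPM in wild type).

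Rps6, Rpl5, Rpl11, Rpsa and Rps19, which have known roles outside translation or in disease, were not called in either edgeR fit. Rps6, the substrate of the S6 kinases, had 567.5, 624 and 604 CPM in Sp9 null replicates 1, 2 and 3, against 581, 634 and 548 CPM in wild type replicates 1, 2 and 3. The groups overlapped fully, and the log2 fold change was 0.05 ± 0.09 (SE). Rpl5 and Rpl11, which with 5S rRNA can bind Mdm2 and so stabilise p53, had log2 fold changes of -0.09 ± 0.09 and -0.17 ± 0.10 (SE). Rpl5 averaged 528 ± 34.5 CPM in Sp9 null and 571 ± 39.997 CPM in wild type MGE, and Rpl11 averaged 262 ± 23.0 CPM in Sp9 null and 300.5 ± 31.3 CPM in wild type MGE. With the block, their adjusted p-values by edgeR were 0.459 and 0.0896. Rpsa, also known as the laminin receptor precursor, averaged 1046 ± 99.5 CPM in Sp9 null and 1071 ± 92.3 CPM in wild type MGE, a difference within the spread between libraries. Rps19, mutated in human Diamond-Blackfan anaemia, had 118, 88.2 and 81.5 CPM in Sp9 null replicates 1, 2 and 3, against 118, 136.5 and 114 CPM in wild type replicates 1, 2 and 3. Sp9 null replicate 1 equalled wild type replicate 1 for this gene, and the other 2 pairs differed. Its log2 fold change was -0.34 ± 0.14 (SE), with an adjusted p of 0.0639 by edgeR with the block.

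Rps26, a protein at the mRNA exit channel of the small subunit (ENSMUSG00000025362, chr10:128624530-128626506), did not follow most of its family. It had 216, 384 and 311 CPM in Sp9 null replicates 1, 2 and 3, against 237, 284 and 239.98 CPM in wild type replicates 1, 2 and 3. Sp9 null replicates 2 and 3 were above every wild type library and Sp9 null replicate 1 was below them all. The log2 fold change was 0.29 ± 0.21 (SE), with an adjusted p of 0.909 by edgeR with genotype alone and 0.477 with the block. Without replicate 1 the blocked edgeR fit called it higher, with an adjusted p of 4.15e-09. That fit held only 2 pairs, so its p-value rested largely on the spread shared across genes. Whether Rps26 was called thus depended on the pair of replicate 1. Rpl4, whose loop lines the exit tunnel, had 866, 973 and 876 CPM in Sp9 null replicates 1, 2 and 3, against 853.5, 929 and 849.9 CPM in wild type replicates 1, 2 and 3. Its groups overlapped, and the log2 fold change was 0.07 ± 0.09 (SE).

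On a scale per length, the deposited FPKM (fragments per kilobase of the deposited gene length, scaled by library total) placed Rpl4, Rps26 and Rps12 highest among the members. Rpl4 averaged 636 ± 41.5 FPKM in Sp9 null and 617 ± 31.4 FPKM in wild type MGE. Rps26 averaged 679 ± 188 FPKM in Sp9 null and 568 ± 59.3 FPKM in wild type MGE, and Rps12 averaged 545 ± 49.9 FPKM in Sp9 null and 607 ± 56.9 FPKM in wild type MGE. Over the 81 tested members the mean FPKM ran from 4.70 to 627, with a median of 75.5. These levels depend on the lengths in the table, which had a median of 2559 bases for the tested members, against 887 bases for 1 GENCODE transcript per gene. Per kilobase of that transcript, Rps6 stood higher than Rpl4, at 676 against 579 counts per 1000000 counts. The order of levels between members is therefore uncertain, while the genotype fold changes do not use length.

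Paralogue pairs differed in level, and none of the minor copies passed the threshold in either fit. Rpl7 averaged 560 ± 43.4 CPM in Sp9 null and 634 ± 43.6 CPM in wild type MGE, and its relative Rpl7l1 averaged 92.2 ± 6.22 CPM in Sp9 null and 106 ± 5.36 CPM in wild type MGE. The log2 fold change was -0.16 for Rpl7 and -0.19 for Rpl7l1. Rpl22, an RNA-binding protein that mice can live without, averaged 139 ± 13.9 CPM in Sp9 null and 160 ± 10.1 CPM in wild type MGE. Rpl22l1, its paralogue, had 24.3, 19.8 and 20.6 CPM in Sp9 null replicates 1, 2 and 3, against 17.1, 26.3 and 17.8 CPM in wild type replicates 1, 2 and 3. Its Sp9 null values lay within the wild type range, wild type replicate 2 was its highest library, and the gene overlaps Gm33051. Rps27l, a paralogue of Rps27 known as a p53 target, had 18.5, 25.96 and 18.1 CPM in Sp9 null replicates 1, 2 and 3, against 19.1, 29.3 and 21.4 CPM in wild type replicates 1, 2 and 3. Replicate 2 was its highest library in both genotypes, and its log2 fold change was -0.13 ± 0.21 (SE), beside -0.46 for Rps27; whether the 2 genes differed was not tested.

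Rpl36a averaged 93.7 ± 6.28 CPM in Sp9 null and 108 ± 18.8 CPM in wild type MGE, and Rpl36al, which encodes nearly the same protein, averaged 48.7 ± 4.38 CPM in Sp9 null and 54.8 ± 5.05 CPM in wild type MGE. Rps4x, the X-linked copy, averaged 551.5 ± 37.9 CPM in Sp9 null and 641 ± 61.5 CPM in wild type MGE, a log2 fold change of -0.20 with an adjusted p of 0.0696 by edgeR with the block. Rps4l had 9.08, 9.47 and 9.54 CPM in Sp9 null replicates 1, 2 and 3, against 9.86, 14.4 and 14.8 CPM in wild type replicates 1, 2 and 3. Its groups were separate by a narrow margin, at a log2 fold change of -0.45 ± 0.19 (SE) and an adjusted p of 0.107 with the block, and it overlaps Tmtc1. The GENCODE transcript chosen for Rps4l has no coding sequence, so its place among the ribosomal protein genes rests on its symbol. Rpl3 averaged 512.5 ± 56.3 CPM in Sp9 null and 582 ± 35.7 CPM in wild type MGE. Rpl39, a short protein of the exit tunnel, averaged 35.98 ± 4.87 CPM in Sp9 null and 49.0 ± 10.1 CPM in wild type MGE, with an adjusted p of 0.0865 with the block. Reads of near-identical copies and processed pseudogenes may be split or dropped in the counting, so the level of any one copy is uncertain.

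The 4 members that were not tested were at or near 0. Rpl10l, the autosomal copy of Rpl10 used in male germ cells, had 0 counts in all 6 libraries, which allows up to 0.273 to 0.439 CPM by the limit of 3 counts per library. Rpl3l, the striated muscle form of Rpl3, had at most 1 count in any library, and Rpl39l, a male germ cell form, had 1 count in 1 wild type library. Rpl24, a constitutive protein of the large subunit, had 2, 2 and 8 counts in Sp9 null replicates 1, 2 and 3, against 4, 4 and 2 counts in wild type replicates 1, 2 and 3. That low level is the one of the deposited counts, and no genotype difference is drawn from it. Of ribosome proteins outside the rule, Fau averaged 131 ± 12.3 CPM in Sp9 null and 151 ± 12.3 CPM in wild type MGE, and Gnb2l1, the scaffold protein Rack1, averaged 528 ± 36.8 CPM in Sp9 null and 571 ± 42.8 CPM in wild type MGE. Neither was called by edgeR in either fit or by DESeq2, and 0 of them had an unadjusted p under 0.05 with genotype alone.

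Short transcripts were lower in Sp9 null MGE beyond the ribosomal proteins. Among other protein-coding genes, the median log2 fold change was -0.14 for transcripts up to 600 bases (113 genes), -0.10 for over 600 to 1000 bases (505 genes), -0.05 for over 1000 to 2000 bases (2445 genes), -0.01 for over 2000 to 4000 bases (5234 genes) and 0.04 above 4000 bases (4455 genes). Ribosomal protein genes had medians of -0.29 (19 genes), -0.18 (31 genes) and -0.15 (24 genes) in the 3 shortest classes, below the other genes of the same class. The 5 members of over 2000 to 4000 bases had a median of -0.19. Across the 80 tested members with a coding transcript, Spearman's rho between log2 fold change and transcript length was 0.386, and with mean log2 CPM it was 0.489, so shorter and less abundant members had the lower values. Across 12752 other protein-coding genes, rho with transcript length was 0.216 and with mean log2 CPM 0.068. These are correlations across genes that share the same 6 libraries. By protein length, the 19 called with the block included 7 of the 26 members with 25 to 130 codons. They also included 9 of the 26 with 132 to 184 codons and 3 of the 28 with 188 to 419 codons. Of all tested genes, 1.78% were called lower with the block. The median log2 fold changes of these groups were -0.19, -0.18 and -0.16, in that order, and the middle group held the most calls. Calls among other genes of like protein length were not counted.

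With each library's trend on transcript length removed, a correction chosen after seeing the data, the median log2 fold change was -0.11 for the large and -0.17 for the small subunit. The blocked fit then called 9 members lower, 2 large-subunit and 7 small-subunit, against 1.82% of all tested genes. Of these, 8 were among the 19, including Rpl9, Rpl37a, Rps13, Rps16, Rps27, Rps28 and Rps29. The large-subunit median thus moved further than the small-subunit median. With the trend on the deposited gene length removed, the blocked fit called 14 members lower, against 1.69% of all tested genes.

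**Figure D5:**
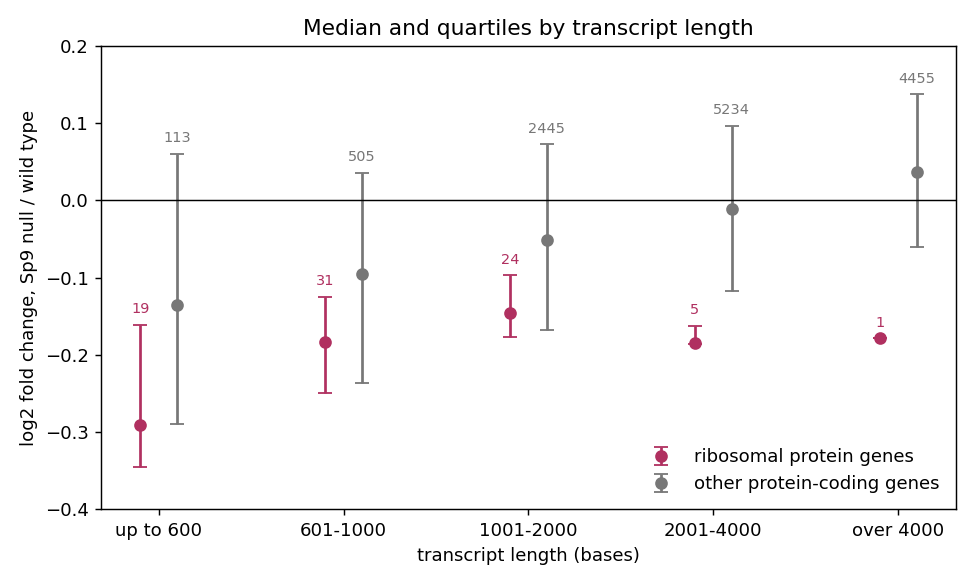
Median log2 fold change of Sp9 null over wild type, with quartiles as bars, by length of 1 GENCODE transcript per gene in bases; red points are ribosomal protein genes and grey points other protein-coding genes, and the numbers are genes per class. The grey medians lie between -0.14 in the shortest and 0.04 in the longest class, and the red point is lower than the grey point in each class.

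The start regions of the members with the lowest and the highest fold changes are shown because promoter motifs and TOP leaders are known sites of control for this family. RefSeq windows on GRCm38.p6 matched 64 of the 85 members by symbol. The 4 lowest and the 4 highest of these by log2 fold change are printed from 60 bases before to 20 bases after the annotated start, 5′ to 3′ on the gene's strand. Capitals mark CTTTC or CTTCC on the transcribed strand, GGGCGG (the GC box core, to which Sp-family zinc fingers bind) on either strand, and CGGAAG (an ETS-type core) on either strand. The windows are chr17:33824543-33824622 (minus strand) for Rps28, chr7:28350629-28350708 (plus) for Rps16, chr3:90213629-90213708 (minus) for Rps27 and chrX:37085203-37085282 (minus) for Rpl39. Those of the highest 4 are chr4:86857348-86857427 (minus) for Rps6, chr9:64173327-64173406 (plus) for Rpl4, chr3:28805448-28805527 (plus) for Rpl22l1 and chr10:128626487-128626566 (minus) for Rps26.
Rps28: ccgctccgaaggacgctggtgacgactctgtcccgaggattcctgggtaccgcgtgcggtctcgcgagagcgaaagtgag
Rps16: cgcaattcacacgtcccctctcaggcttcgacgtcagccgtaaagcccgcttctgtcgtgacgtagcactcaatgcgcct
Rps27: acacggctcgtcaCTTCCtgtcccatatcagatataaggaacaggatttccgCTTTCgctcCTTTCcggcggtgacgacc
Rpl39: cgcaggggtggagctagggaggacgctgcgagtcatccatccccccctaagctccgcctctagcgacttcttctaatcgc
Rps6: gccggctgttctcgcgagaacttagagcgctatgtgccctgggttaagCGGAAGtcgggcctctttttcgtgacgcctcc
Rpl4: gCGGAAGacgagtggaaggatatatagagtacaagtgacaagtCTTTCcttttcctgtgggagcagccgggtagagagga
Rpl22l1: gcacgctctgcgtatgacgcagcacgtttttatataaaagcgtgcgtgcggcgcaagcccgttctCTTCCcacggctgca
Rps26: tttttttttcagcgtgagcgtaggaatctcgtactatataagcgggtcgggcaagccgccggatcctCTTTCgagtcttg
GGGCGG was in none of the 8 stretches. The pyrimidine letters CTTTC or CTTCC were in Rps27 of the lowest 4 and in Rpl4, Rpl22l1 and Rps26 of the highest 4, and CGGAAG in Rps6 and Rpl4.

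In the whole family 2 of the 3 motifs were more frequent than in all windows of tested genes. CTTTC or CTTCC, letters found in TOP leaders, were sought on the transcribed strand between 10 bases before and 20 bases after the start. They lay there in 26 of 76 member windows (34.2%), against 10.6% of windows of tested genes and 9.8% of all 32851 windows. On the opposite strand of the same stretch the shares were 14.5% of member windows, 11.3% of windows of tested genes and 10.7% of all windows. CGGAAG on either strand of the 300 bases was in 60.5% of member windows, against 16.9% of all windows and 28.9% of windows of tested genes. CTTCC is also part of the reverse complement of CGGAAG, so matches of these 2 motifs can overlap. GGGCGG on either strand was in 60.5% of member windows, against 61.8% of windows of tested genes and 35.7% of all windows. Members called lower with the block had 17 windows from 14 genes, and the other tested members had 54 windows from 46 genes. In that order, the shares were 35.3% and 35.2% for CTTTC or CTTCC, 64.7% and 63.0% for GGGCGG, and 64.7% and 61.1% for CGGAAG. With so few windows, neither likeness nor difference between called and other members is read from these shares. A match is a run of letters and not a bound site.

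Other genes of the translation machinery had medians nearer to 0. Of 76 tested mitochondrial ribosomal protein genes, whose products form the separate ribosome of mitochondria, 0 were called by edgeR with genotype alone, 6 had an unadjusted p under 0.05 (all lower, where 5.91% of all tested genes passed in either direction and 2.96% as lower), DESeq2 called 0, and 1 was called lower with the block, near the 1.78% of all tested genes. That gene was Mrps12 (log2 fold change -0.56 with the block, adjusted p = 0.0492 by edgeR). Their median log2 fold change was -0.08, with 54 of 76 below 0. Of 31 translation initiation factors, 0 were called by edgeR with genotype alone, 2 had an unadjusted p under 0.05 (both lower, near the 5.91% of all tested genes in either direction), DESeq2 called 0, and 2 were called lower with the block, against 1.78%: Eif1, which selects the start codon (log2 fold change -0.26, adjusted p = 0.0074), and Eif6, which keeps free large subunits from joining (-0.32, adjusted p = 0.0495). The median over the initiation factors was -0.04. With so few genes called, nothing is read from the counts of these lists.

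Genes with TOP mRNAs that do not encode ribosomal proteins had values near the middle of all genes. Over 18 such genes the median log2 fold change was -0.03, and 0 were called by edgeR with genotype alone or by DESeq2, with 0 at an unadjusted p under 0.05. Eef1a1, the elongation factor that brings tRNAs to the ribosome, averaged 6339 ± 241 CPM in Sp9 null and 6501 ± 187 CPM in wild type MGE. Tpt1 averaged 875 ± 41.7 CPM in Sp9 null and 989 ± 74.2 CPM in wild type MGE. Pabpc1, the poly(A)-binding protein, was called higher with the block (log2 fold change 0.21, adjusted p = 0.0458 by edgeR). It was the only 1 of the 18 called with the block, where 2.22% of all tested genes were called higher. Whether the ribosomal protein genes differed from this list was not tested.

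Genes for making ribosomes and for controlling their output also had medians near 0. Of 57 ribosome biogenesis genes, 0 were called by edgeR in either fit, 4 had an unadjusted p under 0.05 with genotype alone (all lower, against 2.96% of all tested genes), DESeq2 called 0, and the median log2 fold change was 0.02. Of 19 genes of mTOR and Myc control, 0 were called in either edgeR fit or by DESeq2, and the median was -0.00099. By edgeR with genotype alone, 1 had an unadjusted p under 0.05 (lower), against 5.91% of all tested genes in either direction. Larp1 averaged 182 ± 14.9 CPM in Sp9 null and 170 ± 5.02 CPM in wild type MGE, and Mycn averaged 92.2 ± 10.001 CPM in Sp9 null and 98.2 ± 5.61 CPM in wild type MGE. Of 14 tested p53 targets, 0 were called in either edgeR fit or by DESeq2, and the median was -0.03. Here too 1 had an unadjusted p under 0.05 by edgeR with genotype alone (lower), against the same 5.91%. Mdm2 averaged 117 ± 4.64 CPM in Sp9 null and 111 ± 5.23 CPM in wild type MGE. The 13 mitochondrially encoded genes had a median log2 fold change of 0.38, and 0 were called by edgeR with genotype alone. At an unadjusted p under 0.05, 9 passed, all higher, where 5.91% of all tested genes passed in either direction. DESeq2 called 2 higher, against 0.268% of all tested genes. With the block, edgeR called 2 higher, mt-Co2 and mt-Atp6, against 2.22% of all tested genes.

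Pseudogene-named symbols of the family added little to the totals. Together the 21 symbols held 194 to 247 CPM in Sp9 null and 156 to 247 CPM in wild type libraries, and 10 were tested, with a median log2 fold change of -0.03. Rps2-ps6 was called higher with the block (log2 fold change 0.52, adjusted p = 9.54e-05 by edgeR). It had 93.8, 185 and 140 CPM in Sp9 null replicates 1, 2 and 3, against 78.1, 112.6 and 101 CPM in wild type replicates 1, 2 and 3. Rps2 itself, named here only because of this copy, had 181, 258 and 228 CPM in Sp9 null replicates 1, 2 and 3, against 269.6, 261 and 264 CPM in wild type replicates 1, 2 and 3. In CPM, within each pair, the copy was higher and the parent gene lower in Sp9 null, but after TMM scaling the parent gene was not lower in pair 2 (log2 difference 0.029). Reads of near-identical copies can be divided between them by the counting, and this was not tested. With all pseudogene-named symbols added, the difference in the family's share of counts was -0.226 percentage points.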

How the data were processed

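The members and all gene lists were chosen with earlier results of these data known. For each gene and library, the authors deposited a read count and an FPKM value, per the file headers. The authors' FPKM values equalled the count divided by 1 length per gene and by the library total, within a relative tolerance of 0.001, in 21180 of 21180 genes checked, so they hold the same measurements as the counts. Per the submitters' processing notes, TopHat, Cufflinks 2.1.1 and the build GRCm38.p4 were used. The counting program and the strandedness are not given in the sources used here. Unused sample columns numbered 0.

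Counts were tested over the whole table with edgeR 4.0.16 (quasi-likelihood, TMM, default filter, robust) and limma 3.58.1 in R 4.3.3, two-sided, with genotype as the only term and Benjamini-Hochberg adjustment over 14929 genes. SE is approximate, the absolute log2 fold change divided by the root of F. Alternatives were DESeq2 1.42.0, other scalings, no filter, length trends, left-out libraries and a replicate block. The pairing by replicate number comes from the data, since the labels do not say what a number marks. Deviations from the genotype mean correlated by 0.336, 0.729 and 0.535 within pairs 1, 2 and 3, all above the limit of 0.1. Unlike pairs of numbers 1 and 3 also correlated, by 0.354 and 0.230, so these numbers are not told apart. Replicates differed beyond counting noise (chi-square per degree of freedom from 3.28 to 21.9), and a floor of 3 counts covers counting error only.

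Genes given in full were every member called in either edgeR fit, filled up to 20 by size of fold change, plus the 3 of highest FPKM, 8 paralogue pairs and 8 members of known roles. Rps2 was added after its values were seen. Some genes of the rule are not reported here by name. Transcript lengths are those of 1 GENCODE M21 transcript per gene. An overlap is named for genes described here where the neighbour held at least 10% of the member's counts.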

Additional observations from a re-analysis of the deposited data

How the results depend on the processing

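The median log2 fold changes were below 0 in all 21 alternatives, from -0.22 to -0.08 for the large and from -0.26 to -0.11 for the small subunit, and the share difference was below 0 in the alternatives computed for it (counts outside mitochondrial genes, pseudogene-named symbols added, and each library left out), from -0.292 to -0.122 percentage points. The count of members called, 0 with genotype alone, was 19 with the replicate block, 14 with the block and the trend on deposited length removed, 9 with the block and the trend on transcript length removed (chosen after seeing the data), 1 by DESeq2 and 3 by DESeq2 with the block. Leaving out 1 library gave 0 with genotype alone, and leaving out 1 replicate number with the block gave 0, 5 and 51. The causes of these changes were not tested. Rpsa turned from -0.013 to 0.017 with the deposited-length trend removed (0.015 with the block) and to 0.0084 with the transcript-length trend removed (0.0066 with the block). Leaving out 1 library with genotype alone, or 1 replicate number with the block, also turned the sign of 5 genes, whose values then ranged from -0.10 to 0.061 for Rpsa, from -0.57 to 0.028 for Rps18, from -0.34 to 0.077 for Rps27l, from -0.089 to 0.37 for Rpl22l1 (to 0.32 with genotype alone) and from -0.012 to 0.11 for Rps6. Further turned values were 0.0023 for Rpsa, -0.020 for Rpl22l1 and -0.0017 for Rps6, and none of the turned values was called. Tested members had a median of 2280 counts per library (109 to 10226), and with 3 libraries per genotype the spread between them limits these comparisons.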
